A study of Mus musculus with 32 samples.

Results

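The 35 genes described here are interferon-stimulated antiviral genes, followed in cultured mouse cardiac fibroblasts under growth factor and cytokine stimulation. They were chosen by name: each symbol was matched through its Ensembl identifier to 1 row of a table of 55414 gene identifiers, and all 35 passed the filter on low counts that left 16760 genes for testing. By role they comprise 4 transcription factors, 5 sensors of viral nucleic acid, 8 effectors of the IFIT and OAS families with the kinase PKR and 10 other antiviral effectors. A further 6 were grouped under the ISG15 and ubiquitin system, Ifi35 (a modulator of innate signalling) being counted with them. The last 2 are poly-ADP-ribose polymerase (PARP) family members. Measured values took no part in the choice rule, although earlier results from these libraries were known when the list was drawn up.

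Type I interferons signal through a receptor made of IFNAR1 and IFNAR2, whose kinases JAK1 and TYK2 phosphorylate STAT proteins. STAT2 and IRF9 are parts of the complex ISGF3, which binds the interferon-stimulated response element (ISRE) in the promoters of many genes whose products detect viral RNA, degrade it, block its translation or tag proteins with ISG15. IRF7 and IRF1 act on overlapping sets of these promoters, and fibroblasts are a classical source of interferon beta.

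The study measured poly(A) RNA by bulk sequencing in 32 libraries of isolated cardiac fibroblasts, in 8 groups of 4. All groups came from C57BL/6J mice with the floxed allele Pkm2fl/fl, so the controls carry it too; Pkm encodes the glycolytic enzyme pyruvate kinase, and the series concerns a switch between its isoforms. Cells received either iCre, a Cre recombinase, or LacZ, a reporter gene that served as the control, and within each vector the groups were SS (no stimulus named), bFGF at 20 ng/ml, IL-1b at 15 ng/ml and TGFb at 10 ng/ml, each for 24 h. bFGF is a fibroblast mitogen, IL-1b an inflammatory cytokine and TGFb the main inducer of the matrix-producing myofibroblast state.

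The labels limit these groups as a model in several ways. Their protocol text speaks of serum starvation, of a floxed TAK1 allele and of a TNFa arm that is not analysed here, while the genotype tag says Pkm2fl/fl; the growth medium before stimulation also held bFGF. The treatment tags of 16 LacZ libraries go against their titles, so groups were taken from the titles. SS is not spelled out, though a tag calls the iCre SS libraries controls. Libraries carry numbers 1 to 4 in every group, and nothing in the labels tells if a number stands for an animal, an isolation or a day, so p-values measure the spread between libraries whose separateness is not stated.

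Library totals ran from 20736203 to 34995038 counts. The 12 fibroblast markers summed to 22148 to 68362 CPM in every library (counts scaled to library size with the TMM factors of edgeR), 16 leukocyte and macrophage markers to 41.5 to 1150.3 CPM, and 5 markers of lymphocytes and plasmacytoid dendritic cells, which are professional interferon producers, to at most 0.285 CPM. Leukocyte marker sums were highest in number 3 and lowest in number 4 in each of the 8 groups. In bulk RNA, fewer cells of a type and less RNA per cell cannot be told apart. Pkm itself measured 786 ± 247 CPM in LacZ SS and 533 ± 177 CPM in iCre SS (mean ± SD, n = 4); averaged over conditions its log2 difference was −0.50 ± 0.11 (± SE, edgeR quasi-likelihood adjusted p = 0.0744; 0.00381 with the library number as a block). A gene-level count pools both Pkm isoforms and does not show the deleted exon.

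Without a stimulus the genes were already transcribed at very unequal levels. Genes were compared per kilobase of exon, with all annotated exons of a gene merged, which is a rough scale. It counts bases that only some transcripts hold and does not allow for bases shared with other genes. On it LacZ SS libraries held most Ifit3 at a mean of 165 CPM per kb (78.6 to 279.8), followed by Bst2 at 161 (92.8 to 247). Ifi27l2a at 94.0 and Isg15 at 88.7 CPM per kb came next, and the ranges of these 4 genes overlapped, so their order is not settled. Stat2 stood at 28.7 CPM per kb, Irf7 at 16.4, Irf9 at 14.5 and Irf1 at 8.13. The merged exons of Irf7 form 1 stretch of 3776 bases, so its value may be too low beside the others. At the other end, Herc6 measured 1.46 CPM per kb, Mx1 0.282 and Oas3 0.184; Oas3 rested on 12 to 66 reads a library in that group.

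IL-1b raised most of these genes in both vectors, and TGFb lowered most of them in LacZ and 15 of 35 in iCre. With the library number as a block TGFb lowered 25 of 35 in LacZ and 21 of 35 in iCre, where 30.3% and 26.5% of all genes fell. No interaction of TGFb and vector passed for a member. The counts that follow are without the block. In LacZ cells 30 of 35 rose with IL-1b and none fell, where 11.1% of all 16760 genes rose and 8.13% fell; the median log2 change over the 35 was 1.43 against −0.02 over all genes. With TGFb 24 of 35 fell and none rose in LacZ cells, where 22.9% of all genes fell and 23.4% rose; the median was −0.94 against −0.06. In iCre cells 28 rose with IL-1b and none fell (8.88% and 6.84% of all genes; median 1.41 against −0.02) and 15 fell with TGFb and none rose (18.1% and 20.2% of all genes; median −0.66 against −0.05). bFGF raised 1 member in each vector, Ifi27l2b, and lowered none (1.64% of all genes rose and 0.919% fell in LacZ, and 1.44% and 0.752% in iCre), and the medians were 0.05 and 0.10. Log2 changes are given ± SE. Counts use the edgeR quasi-likelihood test with Benjamini-Hochberg adjustment over all genes, at a threshold of 0.05.

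Taking the libraries themselves, 29 members had all 4 LacZ IL-1b libraries above all 4 LacZ SS libraries (13.1% of all genes), and 30 did in iCre (10.6% of all genes). With TGFb, 12 members had all 4 libraries below SS in LacZ (20.3% of all genes) and 11 in iCre (13.9% of all genes). The IL-1b and TGFb comparisons share their SS libraries, so an SS library that is low makes the first look larger and the second smaller. Each comparison's own values are therefore given side by side, and no overlap between them is read as a result.

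**Figure D1:**
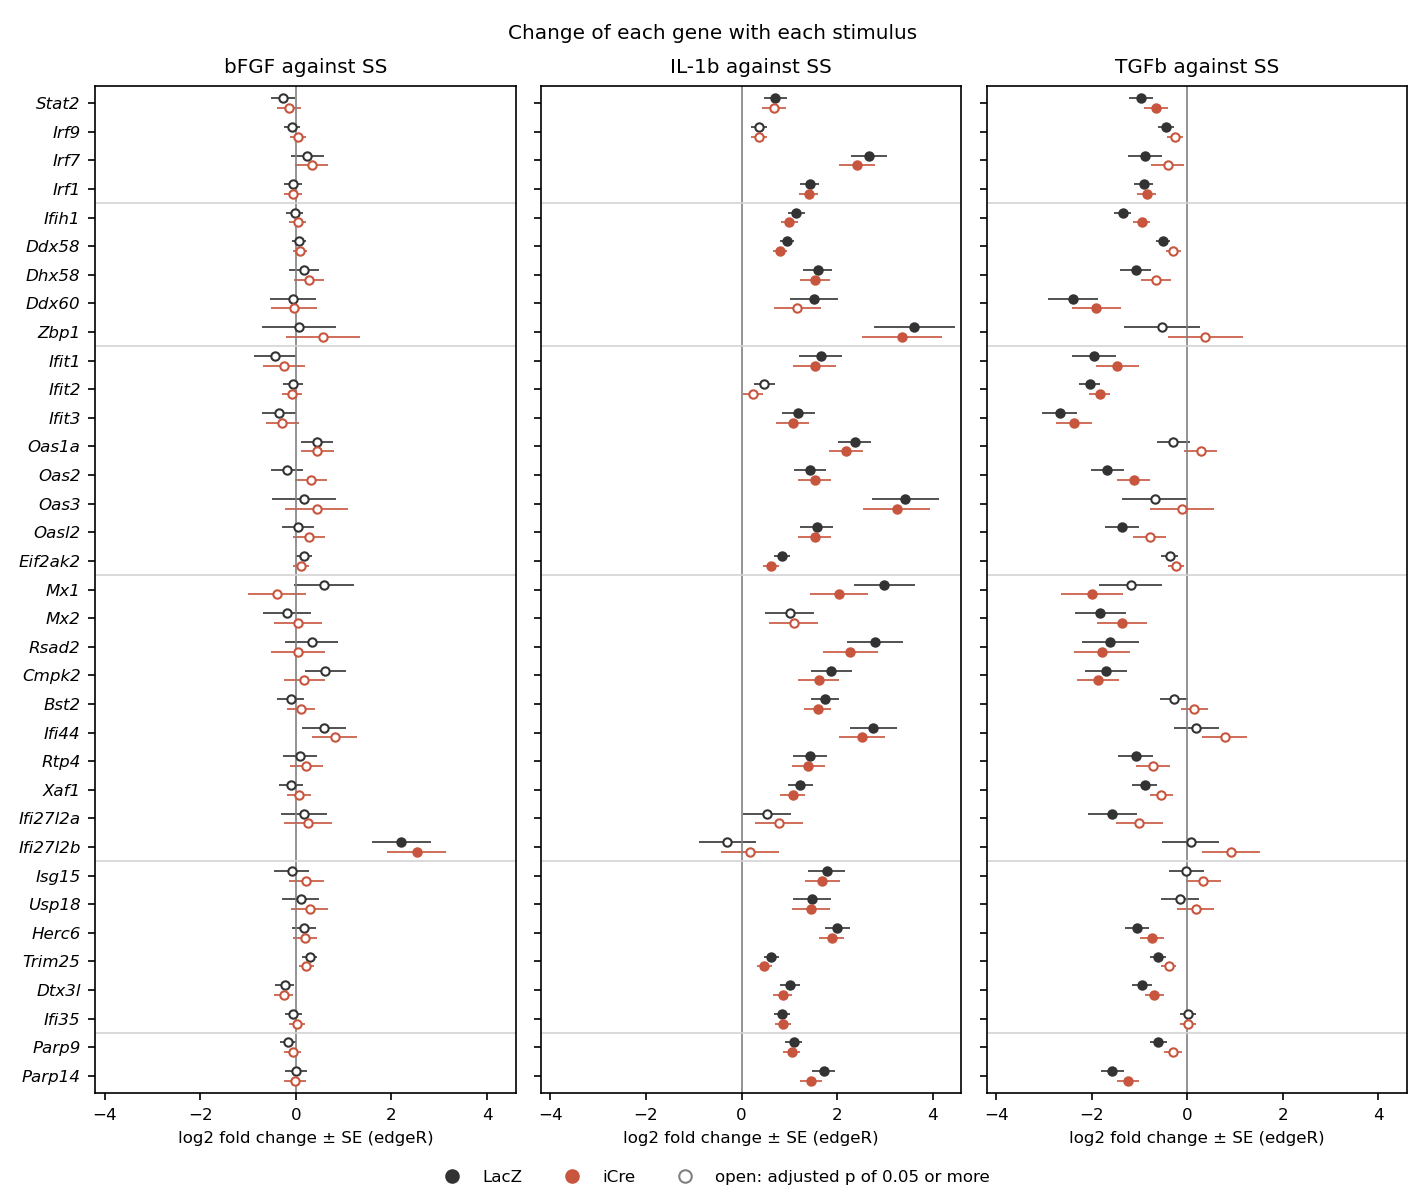
Log2 fold change of each of the 35 genes with each stimulus against SS (x axis, edgeR estimate ± SE), in LacZ and iCre cells, with genes on the y axis ordered by role. With IL-1b 34 of 35 estimates lie to the right of 0 in LacZ and 35 in iCre, with TGFb 32 and 27 lie to the left, and with bFGF most lie near 0 apart from Ifi27l2b.

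**Figure D2:**
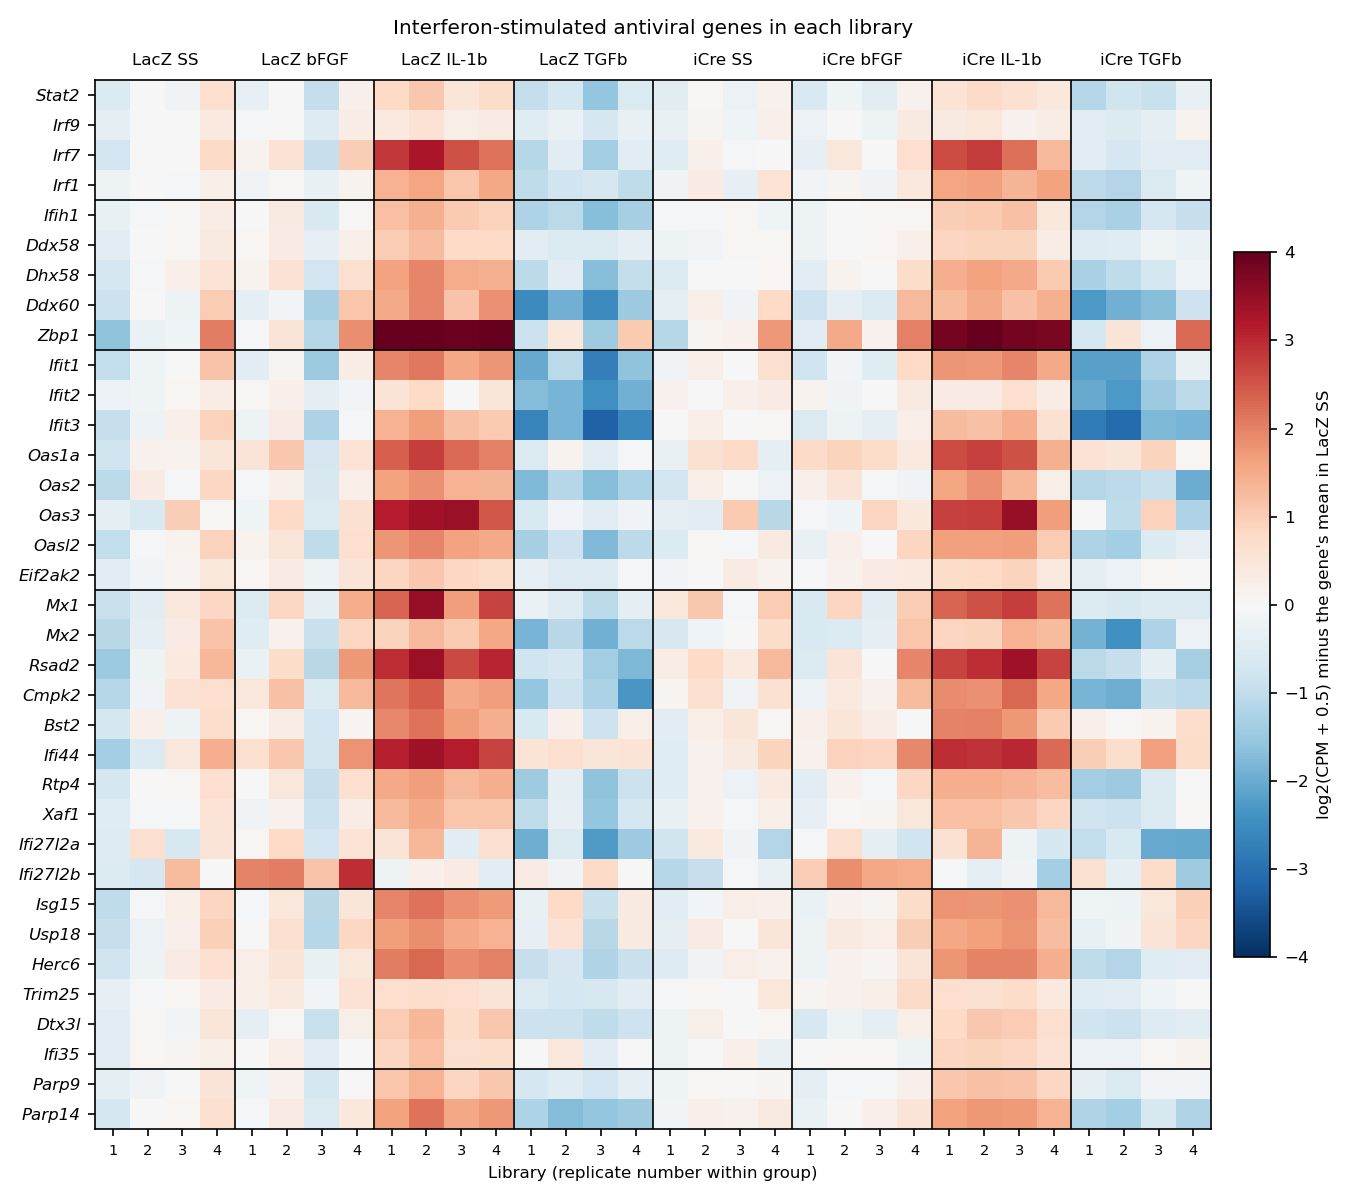
Each gene (rows, by role) in each of the 32 libraries (columns, by group and number), coloured by log2(CPM + 0.5) minus the gene's mean in LacZ SS, on a scale that ends at −4 and 4. The IL-1b columns are warm and the TGFb columns cool for most genes, and within LacZ SS the column of number 4 is warmer than that of number 1.

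Among the transcription factors, IL-1b raised Irf7 and Irf1 in both vectors and Stat2 in LacZ. Of all genes 11.1% rose with IL-1b in LacZ and 8.88% in iCre. TGFb lowered all 4 factors in LacZ and 2 in iCre, Stat2 and Irf1, where 22.9% and 18.1% of all genes fell. IRF7 amplifies the response by driving interferon genes and many ISRE promoters. In LacZ SS libraries 1 to 4 Irf7 stood at 33.6, 58.5, 57.2 and 98.3 CPM, and with IL-1b at 416, 556, 342 and 262. In iCre the SS values were 41.2, 66.0, 55.3 and 56.7 CPM and the IL-1b values 354, 408, 268 and 141. Every IL-1b library lay above every SS library, and number 4 had the highest SS value and the lowest IL-1b value in LacZ. The change was 2.67 ± 0.37 log2 (± SE, 6.36-fold, edgeR adjusted p = 9.73e-06) in LacZ and 2.42 ± 0.37 (adjusted p = 4.28e-05) in iCre. With TGFb the LacZ values were 26.1, 43.0, 21.8 and 42.4 CPM, overlapping SS, and Irf7 fell by 0.89 ± 0.36 (edgeR adjusted p = 0.0422). That call ended in 6 of 32 analyses that left out a single library, and without LacZ SS number 4 the change was −0.56 (adjusted p = 0.224). In iCre the TGFb values were 42.7, 36.2, 42.9 and 42.7 CPM, a change of −0.41 ± 0.35 (edgeR adjusted p = 0.374).

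Irf1, a factor that NF-kB is known to induce, moved with less spread. Its LacZ values were 28.0, 32.2, 30.9 and 38.2 CPM in SS, 85.8, 97, 70.3 and 95.4 with IL-1b, and 15.5, 18.1, 20.0 and 15.5 with TGFb. The 3 LacZ groups did not overlap. The changes were 1.43 ± 0.20 with IL-1b (edgeR adjusted p = 7.69e-06) and −0.91 ± 0.20 with TGFb (adjusted p = 0.000491). In iCre the values were 29.1, 40.7, 25.4 and 47.3 CPM in SS, 97, 101, 82.7 and 98.7 with IL-1b, and 15.2, 13.9, 21.2 and 28.6 with TGFb, where 1 TGFb library exceeded the lowest SS library. The iCre changes were 1.41 ± 0.20 and −0.85 ± 0.20 (edgeR adjusted p = 1.19e-05 and 0.00117).

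Stat2 and Irf9 are the parts of ISGF3 in the list. Stat2 read 112, 166, 146 and 257 CPM in LacZ SS, 281, 341, 226 and 268 with IL-1b, and 83.3, 98.6, 55.9 and 109.6 with TGFb. The TGFb libraries all lay below SS, while IL-1b number 3 lay below SS number 4. Stat2 rose by 0.71 ± 0.25 with IL-1b (edgeR adjusted p = 0.0461), a call that ended in 22 of 32 single-library omissions (adjusted p of 0.0501 to 0.187, and 0.55 log2 without LacZ SS number 1), and fell by 0.97 ± 0.25 with TGFb (adjusted p = 0.00257). In iCre Stat2 read 121, 167, 139 and 183 CPM in SS, 237, 276, 246 and 219.8 with IL-1b and 73.5, 93.3, 86.5 and 131 with TGFb. All 4 IL-1b libraries lay above SS at 0.68 ± 0.25 (edgeR adjusted p = 0.0644; 0.00204 with the library number as a block), and it fell by 0.66 ± 0.25 with TGFb (adjusted p = 0.0375; 0.122 without iCre TGFb number 1).

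Irf9, the DNA-binding part of ISGF3, showed the smallest differences of the 4. It read 58.6, 77.6, 75.1 and 100.2 CPM in LacZ SS, 101, 114, 91.8 and 96.6 with IL-1b, and 54.7, 63.1, 48.2 and 62.0 with TGFb. IL-1b and SS overlapped through SS number 4, and TGFb and SS through SS number 1. The differences were 0.37 ± 0.17 with IL-1b (edgeR adjusted p = 0.138; 0.0126 with the number as a block) and −0.45 ± 0.17 with TGFb (adjusted p = 0.0349; 0.198 without LacZ SS number 4). In iCre the values were 61.7, 82.2, 68.3 and 87.3 CPM in SS, 97.7, 106, 85.5 and 94.2 with IL-1b and 55.9, 52.0, 58.8 and 83.9 with TGFb. The iCre differences were 0.36 ± 0.17 (edgeR adjusted p = 0.171; 0.0207 with the block) and −0.26 ± 0.17 (adjusted p = 0.25).

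The element that ISGF3 reads was searched for in the promoters of the members. RefSeq promoter windows of 300 bases (build GRCm38.p6) were matched for 24 of 35 genes, and the letters GAAA, any 2 bases and GAAA again were sought on both strands, the other strand reading TTTC, any 2 bases and TTTC. They were found in 12 of 24 matched members (50%) and in 3.99% of 27025 genes with such a window. The members were chosen as interferon-stimulated genes, so a share above that of all genes belongs to the choice of list and is no result of these libraries. A match is a description of letters, not a bound site or a cause. The 7 genes whose matches end before the RefSeq gene start together with the 15 bases on each side are shown in the direction of the gene, the matches in capitals; overlapping matches run together.
Ifit3, chr19:34583358-34583431, + strand: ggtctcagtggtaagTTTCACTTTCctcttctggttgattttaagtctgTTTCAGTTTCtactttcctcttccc
Ifit1, chr19:34640770-34640828, + strand: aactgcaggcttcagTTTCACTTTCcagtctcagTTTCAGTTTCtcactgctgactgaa
Isg15, chr4:156200860-156200911, − strand: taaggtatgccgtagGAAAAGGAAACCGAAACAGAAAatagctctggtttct
Bst2, chr8:71537572-71537617, − strand: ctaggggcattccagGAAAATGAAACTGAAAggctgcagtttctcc
Oas3, chr5:120777710-120777749, − strand: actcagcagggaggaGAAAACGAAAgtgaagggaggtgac
Rsad2, chr12:26456548-26456587, − strand: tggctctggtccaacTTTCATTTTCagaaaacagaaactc
Stat2, chr10:128270261-128270300, + strand: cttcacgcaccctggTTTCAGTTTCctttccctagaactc
The other 5 with a match were Ddx60 and Oas1a, whose matches lie before the start while the 15 bases after them cross it, and Ddx58, Eif2ak2 and Ifih1, whose matches lie past it.

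In LacZ, IL-1b raised 22 of the 24 matched members, and all 12 genes with the letters are among them. With so few matched members not raised, this could hardly have come out otherwise. In iCre Stat2 and Ddx60, which carry the letters, were not called with IL-1b. The letters were present in 7 of 17 matched members that TGFb lowered in LacZ and in 5 of 7 that it did not lower. Isg15, Bst2 and Oas3 above are among the latter and Ifit3, Ifit1, Rsad2 and Stat2 among the former. In iCre they were present in 6 of 11 matched members that TGFb lowered and in 6 of 13 that it did not lower. The GAS motif (TTC, any 3 bases and GAA), the same on both strands, was in 6 of 24 members (25.0%), Irf1 among them. It was in 9.55% of all genes with a window, and as above a higher share belongs to the choice of list. The NF-kB letters GGG, any 2 bases and TTTCC, on either strand, were in 0 of 24 (1.89% of all genes with a window). This says only that these letters are not in these windows. None of the 3 motifs was in the windows of Irf7 or Irf9.

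All 5 sensors rose with IL-1b in LacZ (median 1.51 log2) and 4 in iCre, where 11.1% and 8.88% of all genes rose. TGFb lowered 4 in LacZ and 2 in iCre, where 22.9% and 18.1% of all genes fell. Zbp1, which binds Z-form nucleic acid and can trigger cell death, had the largest IL-1b change of the 35. It read 2.0, 5.8, 6.26 and 30.5 CPM in LacZ SS and 129.5, 172, 114 and 134 with IL-1b, 3.62 ± 0.85 log2 higher (12.3-fold, edgeR adjusted p = 0.0031). In iCre it went from 2.95, 7.69, 7.99 and 24.7 CPM to 108, 129, 108 and 102, 3.36 ± 0.84 higher (adjusted p = 0.00645). Number 4 was the highest SS library in both vectors, and with IL-1b the 4 libraries of each vector lay close to each other. With TGFb Zbp1 read 3.71, 9.75, 2.32 and 15.1 CPM in LacZ and 4.11, 10.3, 5.98 and 36.1 in iCre, overlapping SS (−0.53 ± 0.79 and 0.38 ± 0.78, edgeR adjusted p = 0.603 and 0.731).

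Ddx60, a helicase that promotes RNA sensing, fell with TGFb in both vectors. It read 6.99, 13.2, 11.2 and 26.8 CPM in LacZ SS and 1.78, 3.05, 1.81 and 4.41 with TGFb, −2.39 ± 0.53 log2 (edgeR adjusted p = 0.000606). In iCre SS it read 9.79, 15.4, 11.8 and 23.0 CPM and with TGFb 2.24, 3.07, 3.63 and 7.01, −1.90 ± 0.52 (adjusted p = 0.0046). Neither vector's groups overlapped. With IL-1b it read 38.0, 51.8, 28.9 and 47.7 CPM in LacZ, all above SS, and rose by 1.51 ± 0.50 (edgeR adjusted p = 0.0335; 0.124 without LacZ SS number 1). In iCre it read 31.7, 37.8, 30.0 and 35.8 CPM, also all above SS, at 1.17 ± 0.50 (adjusted p = 0.112; 0.000768 with the number as a block).

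The 3 RIG-I-like receptors, Ifih1 (MDA5), Ddx58 (RIG-I) and Dhx58 (LGP2), detect viral double-stranded RNA in the cytoplasm. They rose with IL-1b by 1.15, 0.95 and 1.59 log2 in LacZ and by 1.00, 0.80 and 1.54 in iCre, with no overlap with SS in either vector. TGFb lowered all 3 in LacZ, by 1.35, 0.51 and 1.08. In iCre Ifih1 fell by 0.95 ± 0.18 (edgeR adjusted p = 0.000165), while Ddx58 at −0.29 ± 0.15 (adjusted p = 0.14) and Dhx58 at −0.66 ± 0.31 (adjusted p = 0.0946; 0.0397 with the block) did not pass. The LacZ call of Ddx58 ended without LacZ SS number 4 (−0.37, edgeR adjusted p = 0.0598).

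IFIT proteins bind foreign RNA ends and block translation, and the 3 Ifit genes lie in 1 cluster on chromosome 19 (Ifit2 at 34550694 to 34576419, Ifit3 at 34583531 to 34588731 and Ifit1 at 34640871 to 34650009, GRCm38). They fell with TGFb more than most other members, in both vectors. Ifit3 read 137, 223, 301 and 488 CPM in LacZ SS and 40.2, 70.8, 26.9 and 42.5 with TGFb, and fell by 2.67 ± 0.37 log2 (to 0.157 of SS, edgeR adjusted p = 1.92e-06). In iCre it went from 259, 311, 263 and 270.3 CPM to 37.0, 30.4, 74.9 and 71.6, −2.37 ± 0.37 (adjusted p = 1.42e-05). The lowest SS library exceeded the highest TGFb library in both vectors. Ifit3 shares 51.2% of its 50-base words with Ifit3b, so reads from those words may have been left uncounted or assigned to either gene.

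Ifit2 read 42.2, 44.0, 52.8 and 61.4 CPM in LacZ SS and 14.5, 13.3, 8.59 and 12.6 with TGFb, −2.04 ± 0.22 log2 (edgeR adjusted p = 5.7e-08, the lowest of any member in that comparison). In iCre it went from 56.3, 48.8, 57.1 and 62.1 CPM to 12, 9.69, 17.6 and 23.9, −1.83 ± 0.22 (adjusted p = 5.07e-07). It was the least variable Ifit gene in LacZ SS and the only one of the 3 that IL-1b did not raise past the threshold: LacZ IL-1b libraries read 72.8, 87.1, 49.6 and 69.3 CPM, at 0.48 ± 0.21 (edgeR adjusted p = 0.12). In iCre they read 62.8, 62.1, 80.0 and 60.4 CPM, at 0.24 ± 0.21 (adjusted p = 0.493). No test compared Ifit2 with its neighbours.

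Ifit1 read 56.0, 97.9, 110.4 and 243 CPM in LacZ SS, 426, 479, 322 and 373 with IL-1b and 26.6, 52.0, 16 and 35.6 with TGFb. In iCre it read 99.9, 129.9, 108 and 173 CPM in SS, 372, 364, 426 and 316 with IL-1b and 24.0, 24.1, 46.7 and 90.4 with TGFb. The 3 conditions did not overlap in either vector. With IL-1b it rose by 1.66 ± 0.45 and 1.53 ± 0.45 (edgeR adjusted p = 0.0102 in LacZ and 0.0202 in iCre), and with TGFb it fell by 1.96 ± 0.46 and 1.46 ± 0.45 (adjusted p = 0.00105 and 0.0121). Single omissions ended the IL-1b call without LacZ SS number 1 (1.40, adjusted p = 0.0519) and, in iCre, in 4 of 32 cases (to 0.0708 without iCre SS number 1); the iCre TGFb call ended without iCre TGFb number 1 (−1.25, 0.0511). Ifit3 rose with IL-1b from the SS values above to 675, 830.2, 586 and 538 CPM in LacZ and 620, 586, 716 and 392 in iCre, by 1.19 ± 0.35 and 1.07 ± 0.35 (edgeR adjusted p = 0.0167 and 0.0377; to 0.0793 without LacZ SS number 1 and 0.106 without iCre IL-1b number 3).

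OAS enzymes make oligoadenylates that switch on the nuclease RNase L, and IL-1b raised Oas1a, Oas2, Oas3 and the related Oasl2 in both vectors. Oas3 was near the bottom of the range in SS, at 0.738, 0.562, 2.72 and 1.18 CPM in LacZ and 0.769, 0.709, 2.85 and 0.251 in iCre. With IL-1b it read 13.9, 16.4, 17.3 and 8.57 CPM in LacZ and 10.4, 10.7, 17.6 and 4.76 in iCre, and rose by 3.43 ± 0.70 and 3.25 ± 0.70 log2 (edgeR adjusted p = 0.000868 and 0.00172). Number 3, the library number with the most leukocyte marker RNA, was the highest Oas3 library in both SS and both IL-1b groups; whether it bears on the change was not tested, and all IL-1b libraries lay above all SS libraries. Oas1a rose by 2.37 and 2.19, but 57.6% of its 50-base words also occur in Oas1g. Oas2 rose by 1.43 and 1.53 and Oasl2 by 1.57 and 1.53.

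With TGFb 2 of the 4 OAS genes fell in LacZ and 1 in iCre, where 22.9% and 18.1% of all genes fell. Oas2 fell by 1.67 ± 0.34 in LacZ and 1.12 ± 0.34 in iCre (edgeR adjusted p = 0.00028 and 0.0106), and Oasl2 fell by 1.37 ± 0.35 in LacZ (adjusted p = 0.00239) with −0.79 ± 0.35 in iCre (0.0735; 0.0365 with the number as a block). Oas1a at −0.29 ± 0.34 and 0.28 ± 0.34 (edgeR adjusted p = 0.501 and 0.546) and Oas3 at −0.67 ± 0.69 and −0.11 ± 0.67 (0.445 and 0.913) did not pass in LacZ or iCre. The differences between the OAS genes were not tested. Eif2ak2, which encodes PKR, the kinase that halts translation on sensing double-stranded RNA, rose with IL-1b by 0.84 ± 0.17 in LacZ and 0.61 ± 0.17 in iCre (adjusted p = 0.000664 and 0.0123; 0.0563 in iCre without iCre SS number 1). With TGFb it stood at −0.37 ± 0.17 in LacZ (edgeR adjusted p = 0.0709; 0.0472 with the block) and −0.24 ± 0.17 in iCre (0.272).

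Of the 10 other effectors IL-1b raised 7 in each vector (11.1% of all genes rose in LacZ and 8.88% in iCre). Rsad2, whose product viperin makes a chain-terminating nucleotide, read 1.69, 4.87, 7.62 and 14.9 CPM in LacZ SS and 47.4, 66.2, 38.3 and 50.2 with IL-1b, 2.79 ± 0.59 log2 higher (edgeR adjusted p = 0.0013). In iCre it went from 7.16, 10.2, 7.54 and 14.6 CPM to 39.9, 47.8, 65.0 and 39.4, 2.28 ± 0.58 higher (adjusted p = 0.00756). Both IL-1b groups stood clear of SS. With TGFb it read 3.05, 3.4, 1.85 and 1.3 CPM in LacZ and 2.45, 2.8, 4.31 and 1.94 in iCre, and fell by 1.61 ± 0.60 and 1.78 ± 0.59 (edgeR adjusted p = 0.0289 and 0.0181). The groups did not overlap in iCre, while in LacZ number 1 was higher with TGFb than in SS and the call ended without LacZ SS number 4 (−0.97, adjusted p = 0.2). The iCre call ended in 2 of 32 omissions (to 0.0593 without iCre SS number 4).

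Cmpk2, a nucleotide kinase gene that lies next to Rsad2 on chromosome 12, followed the same pattern. It read 3.73, 7.91, 13.4 and 14.2 CPM in LacZ SS, 40.5, 49.3, 25.9 and 29.1 with IL-1b and 2.65, 4.73, 3.37 and 1.35 with TGFb. In iCre it read 9.39, 14, 7.91 and 13.5 CPM in SS, 33.9, 32.5, 44.5 and 26.6 with IL-1b and 2.03, 1.91, 4.24 and 3.98 with TGFb. Only the LacZ SS and TGFb groups overlapped. It rose with IL-1b by 1.88 ± 0.43 and 1.62 ± 0.43 (edgeR adjusted p = 0.00264 and 0.00982) and fell with TGFb by 1.71 ± 0.44 and 1.87 ± 0.44 (0.00265 and 0.00148).

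Mx1 and Mx2 encode dynamin-like GTPases that trap viral ribonucleoproteins; the Mx1 gene of C57BL/6 mice carries a deletion. Mx1 was scarce, at 0.26, 0.562, 1.44 and 2.01 CPM in LacZ SS and 1.42, 2.5, 0.851 and 2.32 in iCre SS. With IL-1b it read 6.52, 15.1, 3.97 and 8.72 CPM in LacZ and 6.51, 7.67, 9.12 and 5.86 in iCre, 2.99 ± 0.64 and 2.04 ± 0.61 log2 higher (edgeR adjusted p = 0.00138 and 0.0227; to 0.0702 in iCre without iCre SS number 1). It was the 1 member called lower with TGFb in iCre and not in LacZ, at 0.466, 0.4, 0.463 and 0.446 CPM, −2.0 ± 0.65 (adjusted p = 0.017). The LacZ TGFb values were 0.661, 0.492, 0.168 and 0.588 CPM, at −1.18 ± 0.66 (edgeR adjusted p = 0.147), and the levels of the 2 vectors overlapped both in TGFb and in SS. Mx2 stood at 1.01 ± 0.51 and 1.09 ± 0.51 with IL-1b (adjusted p = 0.173 and 0.152; 0.0038 and 0.0037 with the number as a block) and fell with TGFb by 1.82 ± 0.53 and 1.37 ± 0.52 (0.00618 and 0.0373; to 0.0516 without LacZ SS number 4 and 0.145 without iCre SS number 4).

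Ifi44, an interferon-induced gene of less settled function, rose with IL-1b in both vectors and passed with neither of the other stimuli. It read 7.08, 12.9, 26.2 and 52.5 CPM in LacZ SS, 166, 205, 173 and 126 with IL-1b and 28.2, 30.3, 26.8 and 27.8 with TGFb. In iCre it read 13.3, 21.3, 24.7 and 35.3 CPM in SS, 151, 145, 156 and 92.3 with IL-1b and 38.3, 31.5, 60.4 and 32.1 with TGFb. The IL-1b groups lay well above SS, at 2.76 ± 0.50 and 2.52 ± 0.49 log2 (edgeR adjusted p = 0.00022 and 0.000697). The TGFb groups overlapped SS, at 0.19 ± 0.47 and 0.78 ± 0.47 (adjusted p = 0.757 and 0.197).

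Bst2, the tetherin that holds budding virus at the cell surface, rose with IL-1b by 1.75 ± 0.30 in LacZ and 1.59 ± 0.29 in iCre (edgeR adjusted p = 0.00011 and 0.000385) and stood at −0.27 ± 0.29 and 0.15 ± 0.29 with TGFb (0.466 and 0.721). Rtp4, an inhibitor of flavivirus replication, and Xaf1, a pro-apoptotic factor, rose with IL-1b by 1.43 and 1.23 in LacZ and by 1.40 and 1.07 in iCre. TGFb lowered both in LacZ, by 1.08 and 0.89; in iCre they stood at −0.72 ± 0.35 and −0.54 ± 0.25 (edgeR adjusted p = 0.107 and 0.0988; 0.0325 and 0.0346 with the block). Rtp4 in LacZ lost the call without LacZ SS number 4 (−0.79, adjusted p = 0.0845). Ifi27l2a, a gene of the ISG12 family, did not pass with IL-1b (0.54 ± 0.50 and 0.79 ± 0.50, adjusted p = 0.503 and 0.317). With TGFb it fell in LacZ by 1.57 ± 0.51 (edgeR adjusted p = 0.0137; 0.0509 without LacZ TGFb number 3) and stood at −1.0 ± 0.50 in iCre (0.121; 0.00846 with the block).

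Every member of the ISG15 and ubiquitin group rose with IL-1b in both vectors (11.1% of all genes rose in LacZ and 8.88% in iCre). Isg15, a ubiquitin-like modifier, read 30.0, 56.8, 70.7 and 111 CPM in LacZ SS and 235, 273, 214 and 197 with IL-1b, 1.78 ± 0.38 log2 higher (edgeR adjusted p = 0.0012). The iCre change was 1.69 ± 0.37 (adjusted p = 0.00241). Usp18, the protease that removes ISG15 and also restrains IFNAR2, rose by 1.47 ± 0.40 and 1.45 ± 0.40 (edgeR adjusted p = 0.00947 and 0.013; to 0.0561 in iCre without iCre SS number 1). Herc6, the main ISG15 ligase of mice, rose by 2.0 ± 0.26 and 1.89 ± 0.26, with the lowest adjusted p of any member in both IL-1b comparisons (2.56e-06 and 7.54e-06). Trim25, a ubiquitin ligase for RIG-I, rose by 0.62 and 0.48, Dtx3l, a ubiquitin ligase that works with PARP9, by 1.02 and 0.86, and Ifi35, a modulator of innate signalling, by 0.85 and 0.87. The iCre call of Trim25 ended in 6 of 32 single-library omissions (edgeR adjusted p to 0.125 without iCre SS number 1). Ifi35 overlaps the antisense gene Gm11626, which held 112 counts over all libraries against 40223 for Ifi35.

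With TGFb 3 of the 6 fell in LacZ and 2 in iCre (22.9% and 18.1% of all genes fell), and no test compared these genes with each other. Herc6 fell by 1.06 ± 0.25 in LacZ and 0.74 ± 0.25 in iCre (edgeR adjusted p = 0.00125 and 0.0216; to 0.0821 without iCre TGFb number 2), and Dtx3l by 0.94 ± 0.21 and 0.69 ± 0.20 (0.00056 and 0.00935). Trim25 fell by 0.61 ± 0.16 in LacZ (adjusted p = 0.00274) and stood at −0.39 ± 0.16 in iCre (0.0522; 0.017 with the block). Isg15, Usp18 and Ifi35 did not pass in either vector: their differences were −0.02 ± 0.37, −0.15 ± 0.39 and 0.02 ± 0.17 in LacZ and 0.34 ± 0.37, 0.18 ± 0.39 and 0.01 ± 0.17 in iCre (edgeR adjusted p from 0.494 to 0.975). The standard error of Isg15 leaves room for a change of either sign, while that of Ifi35 is narrower. Isg15 read 49.1, 106, 32.5 and 78.1 CPM with TGFb in LacZ and 53.8, 52.8, 83.9 and 118 in iCre. The LacZ values lay inside the range of LacZ SS, while iCre SS read 45.0, 55.8, 73.2 and 70.5 CPM, below TGFb numbers 3 and 4.

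The contrast between Ifit3 and Isg15, a pair singled out after their values were seen, appears inside each library, where scaling plays no part. The ratio of Ifit3 to Isg15 CPM was 3.59 to 5.76 in the 8 SS libraries, 2.92 to 3.97 with bFGF, 2.6 to 3.28 with IL-1b and 0.544 to 0.893 with TGFb. The 8 TGFb libraries thus lay below all 24 others. Because the pair was chosen for this, no test is given.

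Parp9 and Parp14, ADP-ribosyltransferase genes of the macrodomain family, rose with IL-1b by 1.09 and 1.72 log2 in LacZ and by 1.05 and 1.46 in iCre, with no overlap with SS. Parp14 fell with TGFb by 1.57 ± 0.24 in LacZ and 1.25 ± 0.23 in iCre (edgeR adjusted p = 5.96e-06 and 0.000135). Parp9 fell by 0.61 ± 0.18 in LacZ (adjusted p = 0.00619; 0.067 without LacZ SS number 4) and stood at −0.30 ± 0.18 in iCre (0.189). Parp9 and Dtx3l overlap on opposite strands of chromosome 16, sharing 458 exon bases, and with the strand setting of the counting not given in the sources used here their reads cannot be told apart there.

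**Figure D3:**
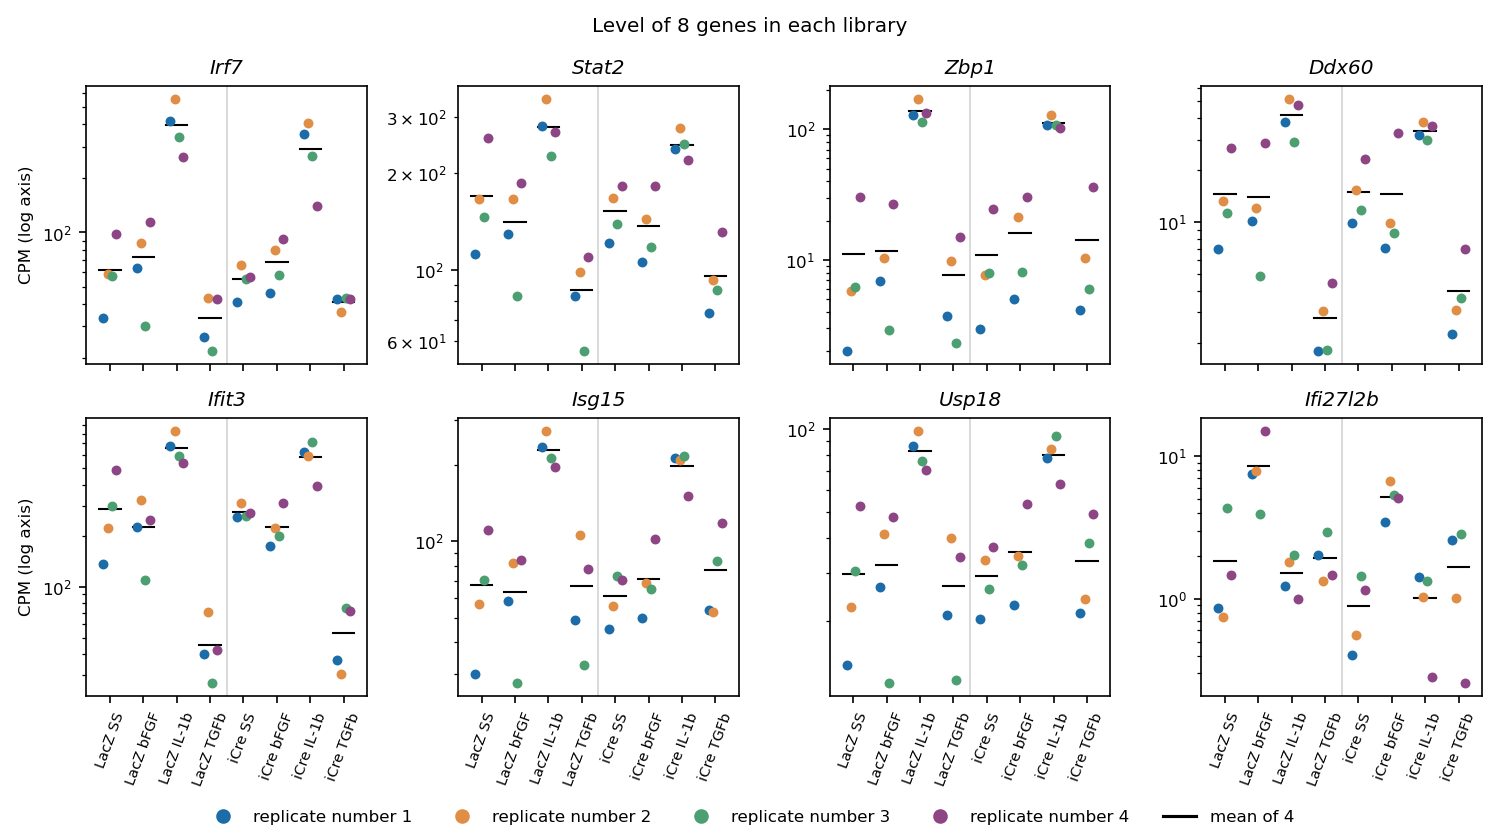
CPM (log axis) of 8 genes in each of the 32 libraries, by group on the x axis, with a point per library, coloured by number, and a bar at the group mean. Irf7, Stat2, Zbp1, Ddx60, Ifit3, Isg15 and Usp18 have higher means with IL-1b than in SS, Ddx60 and Ifit3 fall with TGFb while Isg15 and Usp18 overlap SS, and Ifi27l2b is highest with bFGF.

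bFGF changed 1 of 35 members, Ifi27l2b, in either vector. This gene is a neighbour and relative of Ifi27l2a on chromosome 12. It read 0.868, 0.749, 4.33 and 1.47 CPM in LacZ SS and 7.51, 7.87, 3.96 and 15.1 with bFGF, 2.21 ± 0.61 log2 higher (edgeR adjusted p = 0.0467). In iCre it went from 0.405, 0.56, 1.44 and 1.15 CPM to 3.46, 6.73, 5.36 and 5.09, 2.53 ± 0.62 higher (adjusted p = 0.0306). The iCre groups did not overlap (4.55% of all genes did as much), whereas LacZ number 3 was no higher with bFGF than in SS. The LacZ call ended in 19 of 32 single-library omissions (edgeR adjusted p of 0.0509 to 0.208, the highest without LacZ SS number 2), the iCre call in 4 (to 0.141 without iCre SS number 2), and neither was made when genes with low counts were not filtered out. It was also the 1 member called with neither IL-1b nor TGFb in either vector, with edgeR adjusted p from 0.25 to 0.936. For the other 34 members the log2 differences with bFGF lay between −0.43 and 0.81, the highest being Ifi44 in iCre.

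No member differed between iCre and LacZ in any condition, and no interaction of stimulus and vector passed for a member. Over all genes 0.0% passed in each direction in the 4 single-condition comparisons and the 3 interactions, and 0.0179% higher and 0.0895% lower in the comparison averaged over conditions. At an unadjusted p under 0.05 in the edgeR test there were 0 members in SS, bFGF and IL-1b, 2 with TGFb, 1 in the average and 0 in the interactions, and DESeq2 called 0 members in all of them. The 2 were Oas1a at 0.78 ± 0.34 log2 higher in iCre and Trim25 at 0.33 ± 0.16, with an edgeR adjusted p of 1, and the 1 was Ifi27l2b at −0.65 ± 0.30 (adjusted p = 0.678). The standard errors set what could be seen: for Irf7, Ifit3 and Isg15 they were 0.35 to 0.37 log2 in these comparisons.

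The uncalled differences leaned one way within a condition. With IL-1b 33 of 35 members were lower in iCre (median −0.17) and with TGFb 32 were higher (median 0.27), while in SS and bFGF the medians were −0.06 and 0.06. The TGFb difference varied between numbers. Within numbers 1 to 4, iCre minus LacZ with TGFb had a median of 0.04, −0.25, 0.90 and 0.44 on log2(CPM + 0.5), and number 3 had 34 of 35 members higher; in the same library pairs the median over 16 leukocyte markers was 0.18, −0.42, 0.59 and −0.12. In SS the members' medians by number were 0.29, 0.18, −0.04 and −0.42, and in IL-1b −0.13, −0.34, 0.10 and −0.39. In no condition did the median have 1 sign in all 4 numbers, and the part of the leukocyte RNA in this was not tested. With TGFb Ifi44 was the 1 member whose iCre libraries all lay above the LacZ libraries (means of 40.6 and 28.3 CPM; 0.895% of all genes did as much).

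**Figure D4:**
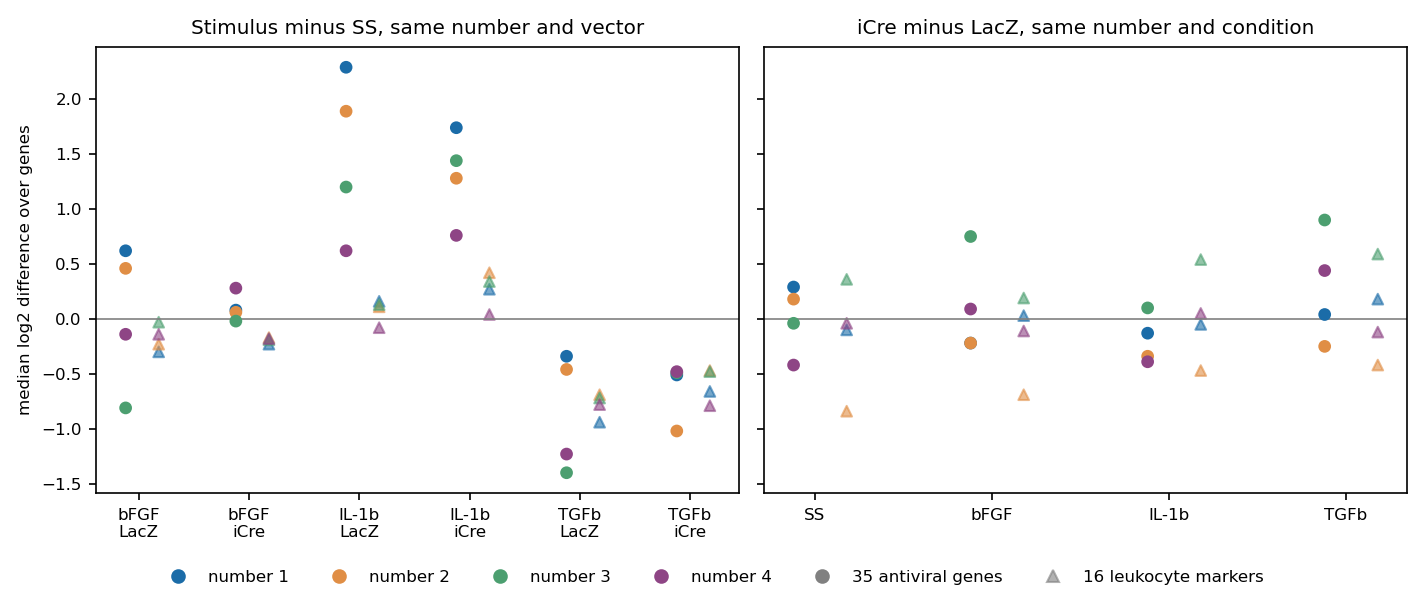
Median log2 difference over the 35 genes and over 16 leukocyte markers for each library number (log2(CPM + 0.5), points by number), for each stimulus minus SS on the left and for iCre minus LacZ on the right. With IL-1b the members' median lies between 0.62 and 2.29 at all numbers and both vectors and with TGFb between −1.4 and −0.34, while bFGF in LacZ runs from 0.62 at number 1 to −0.81 at number 3.

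The 35 genes varied widely from library to library inside a group. The median over members of the highest to the lowest library was 2.66 in LacZ SS and 2.95 in LacZ bFGF, against 1.36 in each over 13220 genes at 1 CPM or more. In iCre it was 1.73 in SS (1.42 over all such genes) and 1.88 in bFGF (1.49). IL-1b groups were the most even, at 1.5 in LacZ (1.31) and 1.45 in iCre (1.36), and TGFb groups stood at 1.94 (1.43) in LacZ and 2.05 (1.43) in iCre, the highest of the 4 conditions there. The largest single ratio was that of Zbp1 in LacZ SS, 15.3.

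In LacZ SS, number 4 was the highest library for 32 of 35 members and number 1 the lowest for 32. Number 4 held the least leukocyte marker RNA in that group, 85.6 CPM summed over 16 markers, against 437, 188 and 667 CPM in numbers 1 to 3. In LacZ bFGF number 3 was the lowest for 34 members, and within number 3 all 35 were lower with bFGF than in SS, while within number 1 all 35 were higher. In LacZ IL-1b number 2 was the highest for 32, and in iCre IL-1b number 4 the lowest for 31. The order of libraries therefore differed between groups.

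The responses measured within a number varied as well. The median IL-1b minus SS difference over members in LacZ was 2.29 in number 1, where SS was lowest, then 1.89 and 1.2, and 0.62 in number 4, where SS was highest. In iCre it was 1.74, 1.28, 1.44 and 0.76. The leukocyte markers differed by 0.16, 0.11, 0.13 and −0.08 in LacZ and by 0.27, 0.42, 0.34 and 0.04 in iCre. TGFb minus SS was −0.34, −0.46, −1.4 and −1.23 for members and −0.94, −0.69, −0.72 and −0.78 for leukocyte markers in LacZ. In iCre the members' values were −0.51, −1.02, −0.49 and −0.48 and the markers' −0.66, −0.47, −0.48 and −0.79. Leukocyte markers thus were lower with TGFb alongside the members (1 of 16 called lower in LacZ, Mrc1, and 0 in iCre by edgeR; 13 and 11 with the library number as a block, where 30.3% and 26.5% of all genes were lower), and their part in the TGFb result was not tested. Their sum ranged from 85.6 to 667 CPM in LacZ SS, 46.5 to 434 in LacZ TGFb, 75.3 to 851 in iCre SS and 41.5 to 617 in iCre TGFb, and none of the 16 was at 0 throughout a group. With IL-1b 0 of 16 in LacZ and 1 of 16 in iCre were called higher (11.1% and 8.88% of all genes), at sums of 122 to 813 and 121 to 1150.3 CPM. With the block 3 were called higher and 1 lower in LacZ (16.8% and 15.6% of all genes). In iCre the block gave 4 higher and 1 lower (15.0% and 14.1% of all genes).

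Markers of other cell types moved as well. With TGFb 6 of 12 fibroblast markers fell and 1 rose in LacZ (median −0.65 log2) and 5 fell and 1 rose in iCre (median −0.50), beside 22.9% and 18.1% of all genes lower. Their sum ran from 39075 to 60604 CPM in LacZ SS and 43086 to 60843 in LacZ TGFb. Pdgfra, a receptor that marks fibroblasts, fell by 2.07 ± 0.48 in LacZ and 1.61 ± 0.47 in iCre (edgeR adjusted p = 0.000888 and 0.00827). Of the endothelial markers 4 of 6 could be tested, and TGFb lowered 1 in each vector (medians −0.88 and −0.63). Their sum went from 16.2 to 34.1 CPM in LacZ SS to 5.6 to 10.7 with TGFb. Of the cardiomyocyte markers 3 of 5 could be tested, and IL-1b and TGFb each lowered 1 in each vector (with IL-1b 8.13% and 6.84% of all genes fell). Their sum ran from 44.6 to 128 CPM in LacZ SS, 4.27 to 7.37 with IL-1b and 9.47 to 36.6 with TGFb, and in iCre from 22.5 to 91.8, 4.29 to 5.39 and 7.91 to 10.2. The part of these markers in the members' results was not tested.

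**Figure D5:**
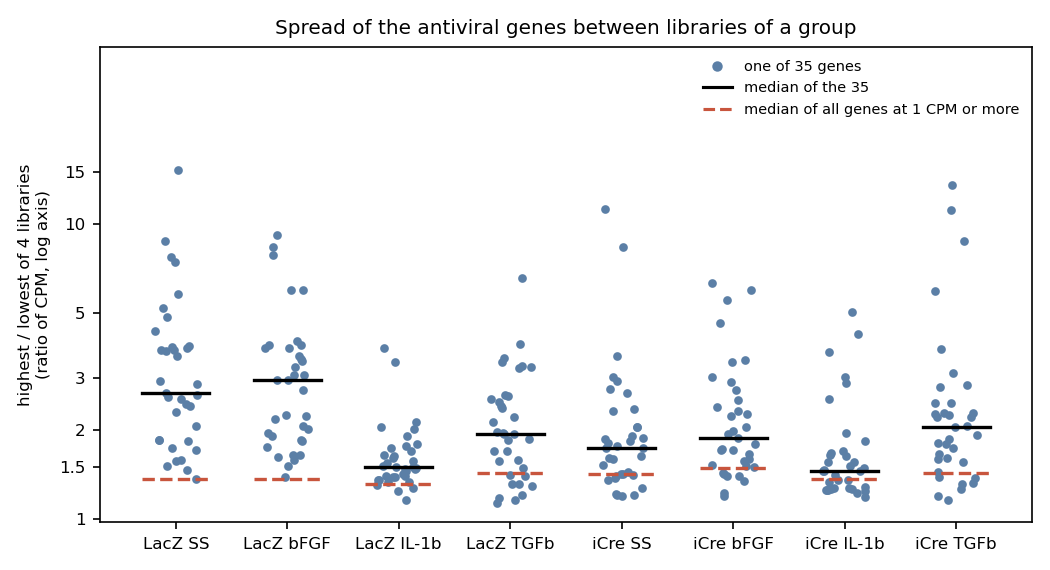
Ratio of the highest to the lowest library for each of the 35 genes (points, log axis) in each group, with the median over members and the median over 13220 genes at 1 CPM or more. Members spread most in LacZ SS and LacZ bFGF (medians of 2.66 and 2.95) and least with IL-1b (1.5 and 1.45).

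The rest of the pathway was read from a list of 93 genes in 7 classes. Interferon genes themselves were close to absent: Ifnb1 gave 7 reads in all 32 libraries together, 3 of them in LacZ IL-1b, with at most 2 in a library, and Ifna1, Ifnk, Ifnl2 and Ifnl3 gave 0. Ifna2 and Ifna4 gave 2 reads each, Ifna5 3, Ifne 7 and Ifng 1. A count of 0 allows up to 3 counts, which is 0.0857 to 0.145 CPM at these depths and covers counting error only. These are levels at 24 h in poly(A) RNA, and no earlier time is analysed here. Il6, an inflammatory cytokine carried in the same class and no interferon, rose with IL-1b by 5.37 ± 0.61 log2 in LacZ and with TGFb by 3.65 ± 0.57 (edgeR adjusted p = 4.05e-07 and 9.87e-06).

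Of 6 interferon receptor genes IL-1b raised 4 in each vector, where 11.1% of all genes rose in LacZ and 8.88% in iCre. Ifnar2 rose from 68.2 ± 3.33 to 218 ± 27.2 CPM in LacZ (mean ± SD, n = 4), 1.68 ± 0.11 log2 (edgeR adjusted p = 6.43e-12), and Ifnar1 rose by 0.85 ± 0.12, Ifngr2 by 0.76 ± 0.09 and Il10rb by 0.99 ± 0.15. Ifngr1 and Ifnlr1 did not pass, at −0.10 ± 0.29 and 0.07 ± 0.33. TGFb lowered Ifnar2 by 0.41 ± 0.10 in LacZ and 0.38 ± 0.10 in iCre (edgeR adjusted p = 0.00214 and 0.00482), left Ifnar1 at 0.03 ± 0.12 and raised Ifngr2 by 0.22 ± 0.09. Il10rb rose with TGFb in LacZ (0.38 ± 0.14, edgeR adjusted p = 0.0336) and stood at 0.26 ± 0.14 in iCre (0.166). TGFb thus raised 2 receptor genes and lowered 1 in LacZ, where 23.4% of all genes rose and 22.9% fell, and raised 1 and lowered 1 in iCre (20.2% and 18.1%). Ifngr1 stood at −0.60 ± 0.29 with TGFb in LacZ (edgeR adjusted p = 0.0894; 3.99e-05 with the block) and −0.55 ± 0.29 in iCre (0.134; 8.1e-05 with the block), and Ifnlr1 at −0.83 ± 0.34 in LacZ (0.0503; 0.0251 with the block).

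Among the JAK and STAT genes, several rose with IL-1b and the kinases of the type I receptor fell with TGFb. Of all genes 11.1% rose with IL-1b in LacZ and 8.88% in iCre, and 22.9% and 18.1% fell with TGFb. Jak2 rose with IL-1b by 1.91 ± 0.11, Stat3 by 0.77 ± 0.14 and Jak1 by 0.58 ± 0.12 in LacZ. TGFb lowered Tyk2 by 0.77 ± 0.11 and Jak1 by 0.69 ± 0.12 there, and both in iCre as well. Of the 2 subunits of the type I receptor, Ifnar2 was also lower with TGFb in both vectors and Ifnar1 did not pass.

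Upstream, 8 of 14 sensors and adaptors rose with IL-1b in LacZ and 7 in iCre, where 1 fell (11.1% and 8.88% of all genes rose). Myd88, an adaptor of Toll-like and IL-1 receptors, stood at 0.55 ± 0.22 in LacZ (edgeR adjusted p = 0.0833; 0.00134 with the block). They included Nod1, a sensor of bacterial cell wall (2.31 ± 0.17 log2 in LacZ), and the kinases Ikbke (1.58 ± 0.20) and Tbk1 (0.46 ± 0.07) that phosphorylate IRF3 and IRF7. With TGFb 6 of 14 fell in LacZ and 5 in iCre, where 1 rose (22.9% and 18.1% of all genes fell). Tlr4, the endotoxin receptor, fell by 1.13 ± 0.19, Ikbke by 0.83 ± 0.20 and Ifi204, a DNA sensor, by 1.34 ± 0.37 in LacZ. Of the 4 IRF genes tested that are no members, IL-1b changed 0 in either vector. In LacZ TGFb lowered Irf2, an antagonist of IRF1, by 0.87 ± 0.12 and raised Irf3 by 0.29 ± 0.09 (edgeR adjusted p = 2.56e-06 and 0.00678). Of all genes 22.9% fell and 23.4% rose there. In iCre TGFb lowered 1 of the 4 and raised 0 (18.1% and 20.2% of all genes). Among 10 negative regulators and modulators, IL-1b raised 4 and lowered 2 in each vector (8.13% of all genes fell in LacZ and 6.84% in iCre); Ptpn2, a phosphatase of JAK and STAT proteins, rose by 1.56 ± 0.09 and Pias1, an inhibitor of STAT signalling, fell by 0.47 ± 0.07 in LacZ. TGFb raised 1 (Ptpn2, 0.69 ± 0.09) and lowered 3 in LacZ, beside 23.4% and 22.9% of all genes. The 3 were Pias1 by 0.80 ± 0.07, Trim24 by 0.80 ± 0.14 and Nlrc5, an activator of MHC class I genes, by 1.36 ± 0.38. With the block TGFb raised 3 and lowered 5 in each vector. Of all genes 28.1% rose and 30.3% fell with the block in LacZ, and 25.1% and 26.5% in iCre. Socs1, an inhibitor of JAK kinases, stood at 1.25 ± 0.49 with IL-1b in LacZ (edgeR adjusted p = 0.0796; 0.000137 with the block).

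A further 39 interferon-stimulated genes outside the 35 could be tested. In LacZ 30 of them rose and 1 fell with IL-1b, and 26 fell and 2 rose with TGFb; in iCre 28 rose and 0 fell, and 19 fell and 1 rose. Of all genes 11.1% rose with IL-1b and 22.9% fell with TGFb in LacZ, and 8.88% and 18.1% in iCre. The medians of the 39 were 1.11 and −0.85 log2 in LacZ and 1.08 and −0.60 in iCre, beside −0.02 and −0.06, and −0.02 and −0.05, over all genes. Ifitm3, which blocks viral entry, rose with IL-1b by 1.47 ± 0.15 and Ube2l6 and Uba7, the enzymes that feed ISG15 to its ligases, by 1.62 ± 0.17 and 1.07 ± 0.16. With TGFb Uba7 fell by 1.45 ± 0.17 in LacZ and 1.24 ± 0.16 in iCre (edgeR adjusted p = 1.16e-07 and 1.95e-06), Ube2l6 stood at −0.38 ± 0.17 and −0.21 ± 0.17 (0.0708 and 0.348), and Slfn9 fell by 1.95 ± 0.27 and 1.45 ± 0.27. Isg20, an RNA exonuclease, rose with both: by 1.18 ± 0.16 with IL-1b and 1.19 ± 0.16 with TGFb in LacZ (edgeR adjusted p = 5.45e-06 and 1.11e-06). bFGF in LacZ raised Jak2 by 0.47 ± 0.11, Tmem173 (STING) by 1.06 ± 0.26, Cgas by 0.78 ± 0.20 and Slfn9 by 0.95 ± 0.26. It lowered Pias1 by 0.25 ± 0.07 (edgeR adjusted p from 0.022 to 0.048 for these genes). Of all genes 1.64% rose and 0.919% fell with bFGF in LacZ. In iCre bFGF raised 0 of 5 JAK and STAT genes, 1 of 14 sensors and adaptors and 0 of the 39 further genes. Of 10 negative regulators it raised 1 and lowered 1 there (1.44% and 0.752% of all genes). With the block bFGF in iCre raised 1 of the 5 (Jak2) and 3 of the 39 (Ifitm3, Slfn2 and Slfn9), beside 6.56% of all genes. The block also had Irf3 higher in both vectors, and Irf8 and Ptpn2 in LacZ, where 7.02% of all genes rose. No interaction of bFGF and vector passed for any gene.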

How the data were processed

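Poly(A) RNA of 32 libraries was prepared with the RNeasy Micro and NEBNext Ultra II kits, per the labels. The values are raw read counts per gene in 1 table deposited by the authors, made with HTSeq 0.10.0 after FastQC 0.10.1 on mm10/GRCm38, per the submitters' processing notes; which aligner, annotation release and strand setting they used is not given in the sources used here. Symbols came from GENCODE M21, which matched 52133 of 55414 identifiers and 99.77% of counts; every column belonged to a sample. Groups were taken from titles. No 2 of 496 library pairs agreed within sampling noise (lowest chi-square per degree of freedom 9.02).

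All 32 libraries entered 1 edgeR 4.0.16 quasi-likelihood fit (limma 3.58.1, R 4.3.3) with a mean per group, TMM scaling and filterByExpr. The fit was tried on simulated counts that held no effect of library number, so that trial does not bear on paired libraries. P-values were adjusted over 16760 genes in each of 14 contrasts at 0.05. Alternatives were DESeq2 1.42.0, other scalings, no filter, a replicate block, and libraries or numbers left out. Numbers pair the libraries: in 40 same-number pairs deviations correlated at 0.153 to 0.857 (minimum set at 0.1), and 31 of 32 libraries were nearest their own number, although the labels do not say what a number marks.

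Every library's value is given for Stat2, Irf9, Irf7 and Irf1 and, per stimulus contrast, for up to 4 called members with the largest change and an average log2 CPM of at least 1; for Isg15 values were added after they were seen. Of 93 other pathway genes, receptors and up to 3 per class with the smallest p are named; 1 further gene is not reported here. Members and lists were chosen with earlier results of these data known. The depth, 20736203 to 34995038 counts a library, sets a floor of 3 counts at 0.0857 to 0.145 CPM. Figures were drawn with matplotlib 3.10.9.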

Additional observations from a re-analysis of the deposited data

Results flagged for a closer look

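In 12 of 280 combinations of a member and a group, the gap between 1 library and the other 3 took up more of the group's range than Dixon's 95% critical value; chance flags about 1 in 20 groups, and members move together, so these are not independent. Number 4 supplied 9 of the 12. In iCre IL-1b number 4 was low for Ddx58 (157 CPM, others 230.3 to 236), Oasl2 (219, others 334 to 343), Isg15 (151, others 209 to 218) and Ifi35 (58.1, others 70.1 to 72.5), and number 3 was high for Ifit2 (80.0, others 60.4 to 62.8). In iCre bFGF number 4 was high for Ddx60 (32.7 CPM, others 7.08 to 9.79), Mx2 (22.1, others 6.38 to 7.64) and Trim25 (115, others 73.4 to 78.9). In SS number 4 was high for Trim25 in iCre (93.3 CPM, others 65.9 to 69.3) and for Zbp1 in LacZ (30.5, others 2.0 to 6.26), and number 1 was low for Parp9 in iCre (46.8, others 55.1 to 56.8). In iCre TGFb number 2 was low for Irf7 (36.2 CPM, others 42.7 to 42.9).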

How the results depend on the processing

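No called value of a member changed sign under any alternative run. The counts of members called with IL-1b and with TGFb in LacZ, and with IL-1b in iCre, stayed within 1.5 times the reported ones: 27 to 33 with IL-1b in LacZ, 19 (without number 3) to 33 in iCre, and 17 (without number 3) to 25 with TGFb in LacZ. With TGFb in iCre the count went from 15 to 24 without number 4 and with the replicate block (2 higher, Ifi44 and Ifi27l2b, and 22 lower). The 1 member called with bFGF, Ifi27l2b, became 0 with no filter on low counts in both vectors, and in LacZ also without number 4; the cause was not tested. Scaling by library totals alone moved the median TGFb change over all genes to −0.26 in LacZ and −0.27 in iCre and called 25 and 21 members; 31 and 27 of 35 members lay below that median, as many as with TMM. DESeq2 called 30 and 29 members with IL-1b and 24 and 17 with TGFb in LacZ and iCre.

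Leaving out 1 library at a time gave 26 to 32 members with IL-1b in LacZ, 22 to 29 in iCre, 17 to 25 with TGFb in LacZ, 10 to 21 in iCre, 0 to 1 with bFGF in either vector and 0 to 0 in every comparison of vectors and every interaction. The LacZ extremes were LacZ SS numbers 1 and 4.

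With the library number as a replicate block 32 members were called with IL-1b in each vector, 25 with TGFb in LacZ and 21 in iCre, 1 with bFGF in each and 0 between vectors; for the 35 members the pairing ended no call and changed no other call than those given with the block above. With this block 16.8% and 15.0% of all genes rose with IL-1b in LacZ and iCre. With TGFb 30.3% and 26.5% fell, and with bFGF 7.02% and 6.56% rose. Averaged over conditions, 1.11% of all genes were higher and 1.72% lower in iCre than in LacZ. Of the receptor, sensor, IRF, negative regulator and further interferon-stimulated genes the block ended no call with IL-1b or TGFb. Of the 39 further genes 33 rose with IL-1b in LacZ and 32 in iCre, and 29 and 20 fell with TGFb. Of the 14 sensors 9 and 8 rose with IL-1b and 7 and 6 fell with TGFb. Depth limits Oas3, Mx1 and Ifi27l2b most, at about 1 CPM in SS.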
